A study of Mus musculus with 9 samples.

Results

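The genes examined were 10 enzymes that build, sulfate and trim heparan sulfate or supply the sulfate for it: Ext1, Ndst1, Hs2st1, Hs6st1, Hs6st2, Hs3st3b1, Papss1, Papss2, Sulf1 and Sulf2. Every probe set (the short probes that together read 1 transcript) whose only gene symbol in the platform annotation was one of these names was taken. This gave 26 probe sets of 9 genes, out of 18194 genes with such a probe set, while Ndst1 was not analysed here. The enzymes were brought together because of the large difference between groups at a probe set of Hs3st3b1, so the members were in effect chosen by these very signals, and differences between mutant and wild type at these genes are given as a description, without a test of single members.

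Heparan sulfate is a sulfated sugar chain carried by proteoglycans of the cell surface and matrix, and the places where sulfate is added decide which growth factors the chain can hold. The chain is polymerised by Ext1 with its partner, Ndst enzymes replace acetyl with sulfate on glucosamine, and dedicated sulfotransferases then modify single ring positions. The sulfate comes from the donor PAPS (3'-phosphoadenosine 5'-phosphosulfate), made by Papss1 and Papss2, while the secreted enzymes Sulf1 and Sulf2 remove sulfate groups again outside the cell. In the kidney the chain is known for its part in branching of the ureteric bud, and mice without Hs2st1 form no kidneys.

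Renal vesicles, the first epithelial stage of the nephron, were captured by laser from E12.5 (embryonic) kidneys of the mouse and profiled on 9 arrays, 5 wild type and 4 Lim1 mutant. Each sample held about 30 to 50 vesicles, and the labels describe the samples as biologically independent without naming animals or litters. Lim1 is the older name of Lhx1, a LIM homeodomain transcription factor. The labels give no allele, strain or Cre driver, and only mutant array 4 has an RNA purification kit (RNeasy Micro) named in its own label. RNA was amplified in a 2-round kit before hybridisation.

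Array medians lay between 144 and 195. At one Lhx1 probe set (1421951_at) the signals were 2327 to 17587 in wild type and 6.88 to 10.5 in the mutants, and at the other (1450428_at) they were 1696 to 18555 and 4108 to 4951. The labels leave the altered stretch of Lhx1 unnamed, so it is unknown here which probe set checks the genotype. The vesicle markers Wnt4 and Pax8 were measured on all arrays, at 12926 or more and at 2259 or more. The 9 vesicle markers listed, with differences below 0 for 6 and above 0 for 3 (none passed), had a summed signal of 101719 to 219833 in wild type and 121132 to 133643 in the mutants. The list and its sum include the mutated gene, as Lhx1 1450428_at (-0.86 ± 0.58) was among the 6 below 0. In tissue of mixed cells, fewer cells of a type and less RNA per cell cannot be told apart. The signal near the 3 prime end over that near the 5 prime end is a sign of how far transcripts were kept whole. For Gapdh this ratio was 12.4 to 87.6 in wild type and 17.8 to 61.4 in the mutants. For beta-actin it was 14.7 to 21.7 in wild type and 16.3 to 25.2 in the mutants.

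The sequences upstream of Hs3st3b1 and of its paralog Hs3st3a1 are shown because these are the close paralogs of the 3-O group, which both had a probe set with a lower mean signal in the mutants. Each is the 250 bases before the annotated RefSeq start (GRCm38.p6), 5′ to 3′ on the strand of the gene. Capitals mark matches on either strand to GGGCGG (the GC box), CCAAT (the CCAAT box), TATAAA (the TATA box) or TAATTA (a core bound by LIM homeodomain factors, which reads the same on both strands). In Hs3st3a1 a GC box and a CCAAT box overlap.
Hs3st3b1 (chr11:63922285-63922534, minus strand): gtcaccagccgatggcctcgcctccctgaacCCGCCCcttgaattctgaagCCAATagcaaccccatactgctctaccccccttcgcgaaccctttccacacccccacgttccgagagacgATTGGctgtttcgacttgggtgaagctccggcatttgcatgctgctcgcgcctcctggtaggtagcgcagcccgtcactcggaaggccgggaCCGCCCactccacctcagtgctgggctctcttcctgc
Hs3st3a1 (chr11:64435082-64435331, plus strand): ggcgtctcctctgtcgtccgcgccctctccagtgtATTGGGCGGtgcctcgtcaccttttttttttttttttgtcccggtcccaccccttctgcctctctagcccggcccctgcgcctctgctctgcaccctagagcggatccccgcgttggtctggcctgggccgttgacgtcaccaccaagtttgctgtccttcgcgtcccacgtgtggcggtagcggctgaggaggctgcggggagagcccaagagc

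Hs3st3b1 held 2 GC boxes and 2 CCAAT boxes, and Hs3st3a1 held 1 of each. Neither window held TATAAA or TAATTA, letters that 12.4% and 4.84% of 32851 upstream windows of this length held. GGGCGG was found in 32.7% and CCAAT in 33.8% of those windows. Among the members, 7 genes had such windows, at 11 start sites. Of the 11, 6 held a GC box, 6 a CCAAT box and 2 a TATA box, and no window held TAATTA. A match is only a match of letters, and no match says only that these letters are not in the window.

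Hs3st3b1 adds the rare sulfate on the third ring position of glucosamine, late in chain assembly. At its brightest probe set (1433977_at) the wild-type signals on arrays 1 to 5 were 6853, 7205, 2799, 3054 and 3728. The 4 mutant signals were 118, 681, 443 and 242. Every mutant array lay below every wild-type array, with the highest mutant signal at 681 and the lowest wild-type signal at 2799. The wild-type mean was 4728 ± 2132 (SD, n = 5) and the mutant mean 371 ± 246 (SD, n = 4). The fitted difference, mutant minus wild type, was -3.65 ± 0.54 (standard error) on the scale log2(signal + 42.41), which is 12.6-fold. It was this contrast that led to the choice of the genes, so it supports nothing here.

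The other Hs3st3b1 probe sets did not show that difference. At 1421331_at the wild-type signals were 430, 126, 327, 274 and 290 and the mutant signals 220, 390, 278 and 291, so the groups overlapped and the difference was -0.06 ± 0.47. At 1421332_at the wild-type signals were 180, 37.9, 180, 217 and 122 and the mutant signals 200, 211, 317 and 175, with a difference of 0.47 ± 0.46. The remaining probe set (1442816_at) was too dim for the filter and read 13.2 to 50.2 in wild type and 34 to 109 in the mutants. Wild-type array 2, the highest of all arrays at the brightest probe set, was the lowest of all at both 1421331_at and 1421332_at. Probe sets read different parts of a transcript and amplification favours the 3 prime end; where each of these lies in Hs3st3b1 was not examined here.

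**Figure D1:**
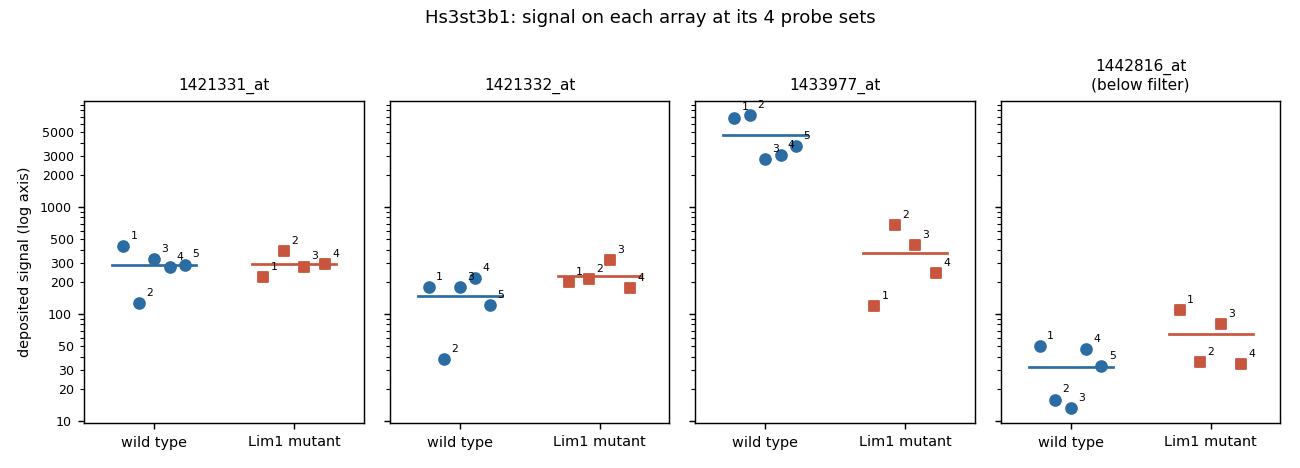
Deposited signal (log axis) of Hs3st3b1 on each array at its 4 probe sets, with circles for 5 wild-type arrays, squares for 4 Lim1 mutant arrays, the array number beside each point and a line at the group mean. At 1433977_at the mutants sit between 118 and 681 and the wild type between 2799 and 7205, while at the other probe sets the groups overlap.

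Markers of neighbouring cell types were set beside this result. Of 12 ureteric bud markers listed, 11 were measured and 9 were bright enough to test. The mutant signal was the lower at 8 of these and the higher at 1 (median difference -0.88), and none passed the test in limma over all probe sets. The summed signal of the 11 was 19223 to 69273 on the wild-type arrays and 7345 to 16654 on the mutant arrays, without overlap. Emx2 alone gave 11077 of the 24285 on wild-type array 4, and 1012 of the 16654 on mutant array 3. Without Emx2 the sum on wild-type array 4 would lie below that on mutant array 3, so the groups would overlap. The median deviation of the 11 markers from their own log2 means did overlap, at -0.52 to 1.41 in wild type and -1.15 to 0.21 in the mutants. Wild-type array 2 had the highest bud sum and the highest Hs3st3b1 signal, and mutant array 1 the lowest of both. No bud marker was at 0 on any array, and the lowest signal was 4.14, of Ret on mutant array 4. Among the bud markers, Emx2, a homeobox factor of the bud and early nephron, read 1617 to 11077 in wild type and 867 to 1250 in the mutants without overlap (-2.16 ± 0.50, limma adjusted p = 0.387). Gata3, a transcription factor of the bud, was below the filter, at 15.0 to 2141 and 4.44 to 10.7. Its groups did not overlap, but wild-type arrays 4 and 5 read 15.0 and 25.8. These lie under the 42.41 added before the log, where signals have no firm order. The other 9 measured overlapped between the groups. Of these, Wnt11 was the 1 tested marker with a difference above 0 (0.77 ± 0.49, limma adjusted p = 0.824). Hoxb7, below the filter, lay above 0 as well (0.38 ± 0.38). Ret, the receptor of the bud tip, read 4.14 to 379 in the mutants and 423 to 7618 on wild-type arrays 2 to 5, but 26.5 on wild-type array 1, where Hs3st3b1 read 6853, and 337 on mutant array 1, where Hs3st3b1 read 118. Calb1, the calbindin of the bud, was highest on wild-type array 2 (39640) and lowest on mutant array 1 (239), like Hs3st3b1, and read 696 on wild-type array 4 and 2754 on mutant array 3, where Hs3st3b1 read 3054 and 443. The part of bud tissue in the Hs3st3b1 result was not tested.

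For endothelium, 10 markers were measured and all 8 tested lay below 0 (median -0.76), with sums of 4412 to 18716 in wild type and 3770 to 5420 in the mutants. On wild-type arrays 1 and 5 the endothelial sums, 4412 and 4680, lay within the mutant range, and Hs3st3b1 read 6853 and 3728 there. The 10 stroma markers had sums of 20033 to 156412 and 16851 to 54784 (median -0.32, 4 above 0 and 6 below), and the 8 cap mesenchyme markers 17020 to 33629 and 19036 to 27515 (median -0.13 over 7 tested). The 8 macrophage markers had sums of 761 to 21673 and 2679 to 5272, and the 7 erythroid markers 50201 to 155956 and 33825 to 120017. None of these lists had a member that passed over all probe sets or a member at 0.

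**Figure D2:**
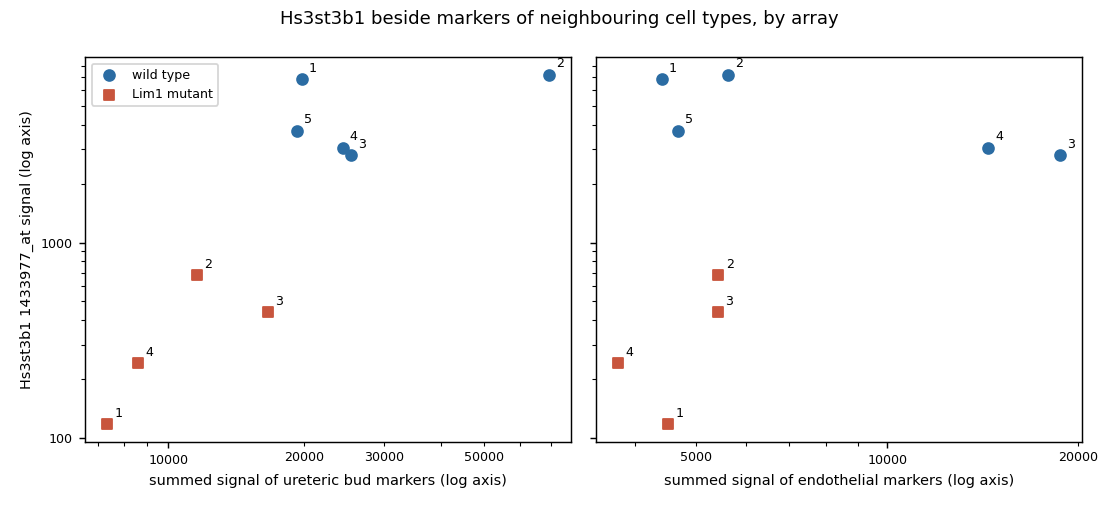
Signal of Hs3st3b1 at 1433977_at (vertical log axis) against the summed signal of the ureteric bud markers (left) and of the endothelial markers (right, both log axes) for 5 wild-type arrays (circles) and 4 mutant arrays (squares), each numbered. Bud sums, which include Emx2, are 19223 or more in wild type and 16654 or less in the mutants, and would overlap without Emx2. Endothelial sums of the groups overlap. The median deviation of the bud markers, not drawn, overlaps between the groups.

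The probe sets of other genes most like Hs3st3b1 (1433977_at) over the 9 arrays, by Pearson r of normalised log2 signals, were those of Cldn5 (r = 0.961), Zwint (0.958), Cask (0.922), Prps2 (0.917) and Rmi1 (0.907). Cldn5 encodes a claudin of tight junctions, Zwint a kinetochore protein and Cask a membrane-associated scaffold. At all 5 every mutant array lay below every wild-type array, and their differences were -3.40 ± 0.32, -1.31 ± 0.41, -1.35 ± 0.27, -1.11 ± 0.27 and -1.0 ± 0.29. These arrays share their groups, so the likeness is a description. The Papss2 probe set described next had r = 0.542 and ranked 1244 among 22773.

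Papss2 is one of the pair of enzymes that make PAPS, the donor for every sulfotransferase of the route. At its brightest probe set (1434510_at) the wild-type signals were 9671, 1892, 12919, 9133 and 3566, and the mutant signals were 664, 29.0, 732 and 3034. The wild-type mean was 7436 ± 4573 (SD, n = 5) and the mutant mean 1115 ± 1318 (SD, n = 4), with a difference of -3.38 ± 0.95. The groups overlapped through a single pair of arrays, since mutant array 4 (3034) lay above wild-type array 2 (1892). Without mutant array 2, which read 29.0, the difference was -2.37, and without mutant array 4 it was -4.20. The other Papss2 probe sets disagreed with it and with each other. 1421987_at read 25.8 to 489 in wild type and 176 to 440 in the mutants (0.57 ± 0.59), and 1421989_s_at read 21.4 to 321 and 4.62 to 346 (-0.60 ± 0.68). 1421988_at lay below the filter, at 7.84 to 54.1 and 4.0 to 133.

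Papss1, the other PAPS synthase, was even across the arrays. Its 1 probe set (1415890_at) read 10291, 10872, 8620, 7343 and 9762 in wild type and 10800, 9962, 11620 and 7417 in the mutants. The lowest signals of both groups, on wild-type array 4 and mutant array 4, nearly coincided. The difference was 0.09 ± 0.21, and the within-group SD on the log2 scale was 0.21 and 0.28, against 1.16 and 2.26 for Papss2 (1434510_at).

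Ext1, which lengthens the chain, read 4972, 3172, 4544, 3286 and 2728 in wild type and 5958, 2507, 1297 and 5685 in the mutants (1417730_at). The mutant arrays held both the highest pair and the lowest pair of the 9, and the difference was -0.14 ± 0.45. It was 0.28 without mutant array 3 and 0.12 without wild-type arrays 1 and 3. Its other probe set (1458054_at) was below the filter, at 10.4 to 108.

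Hs2st1 adds sulfate to the uronic acid of the chain. At the brightest of its 4 probe sets (1450729_at) the wild-type signals were 15226, 19999, 24696, 8005 and 14670 and the mutant signals 20062, 16370, 19302 and 13120. The mutants lay inside the wild-type range, with a difference of 0.15 ± 0.30. At 1450730_at wild-type arrays 1 and 3 stood low, at 634 and 668 against 2217 to 2420 on the other wild-type arrays and 1892 to 3114 on the mutants, and the difference was 0.63 ± 0.47, or -0.02 without those arrays. At 1422739_at wild-type array 3 read 199 and the other wild-type arrays 635 to 801, against 463 to 1657 in the mutants (0.96 ± 0.55). The fourth, 1440905_at, had a difference below 0, of -0.94 ± 0.98, where wild-type array 1 read 1567, wild-type array 3 read 1776 and mutant array 4 read 917, against 49.6 to 172 on the other 6 arrays. Its difference was 0.47 without wild-type arrays 1 and 3 and -1.63 without mutant array 4.

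The 6-O-sulfotransferases Hs6st1 and Hs6st2 add sulfate to glucosamine at a site that fibroblast growth factors are known to read. Hs6st1 (1417293_at) read 1442, 1050, 891, 1203 and 878 in wild type and 1609, 3457, 1883 and 1405 in the mutants. Only mutant array 4 (1405) lay below the highest wild-type array (1442), and the difference was 0.84 ± 0.39. Hs6st2 at its brightest probe set (1450047_at) varied widely, at 3272, 9905, 8055, 10036 and 3262 in wild type and 24845, 1677, 2016 and 9495 in the mutants. The mutants spanned the highest and the lowest of all 9 signals, with a difference of -0.15 ± 0.76 that was 0.41 without mutant array 2 and -0.92 without mutant array 1. At 1420938_at Hs6st2 read 7.91 to 186 in wild type and 15.0 to 825 in the mutants (1.52 ± 0.81). Mutant arrays 1 and 4, the high pair among the mutants at 1450047_at, were the highest of all arrays here, at 690 and 825. Without mutant array 2 that difference was 2.29. The other 2 Hs6st2 probe sets were below the filter, at 8.35 to 267 (1420939_at) and 11.6 to 516 (1446257_at).

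**Figure D3:**
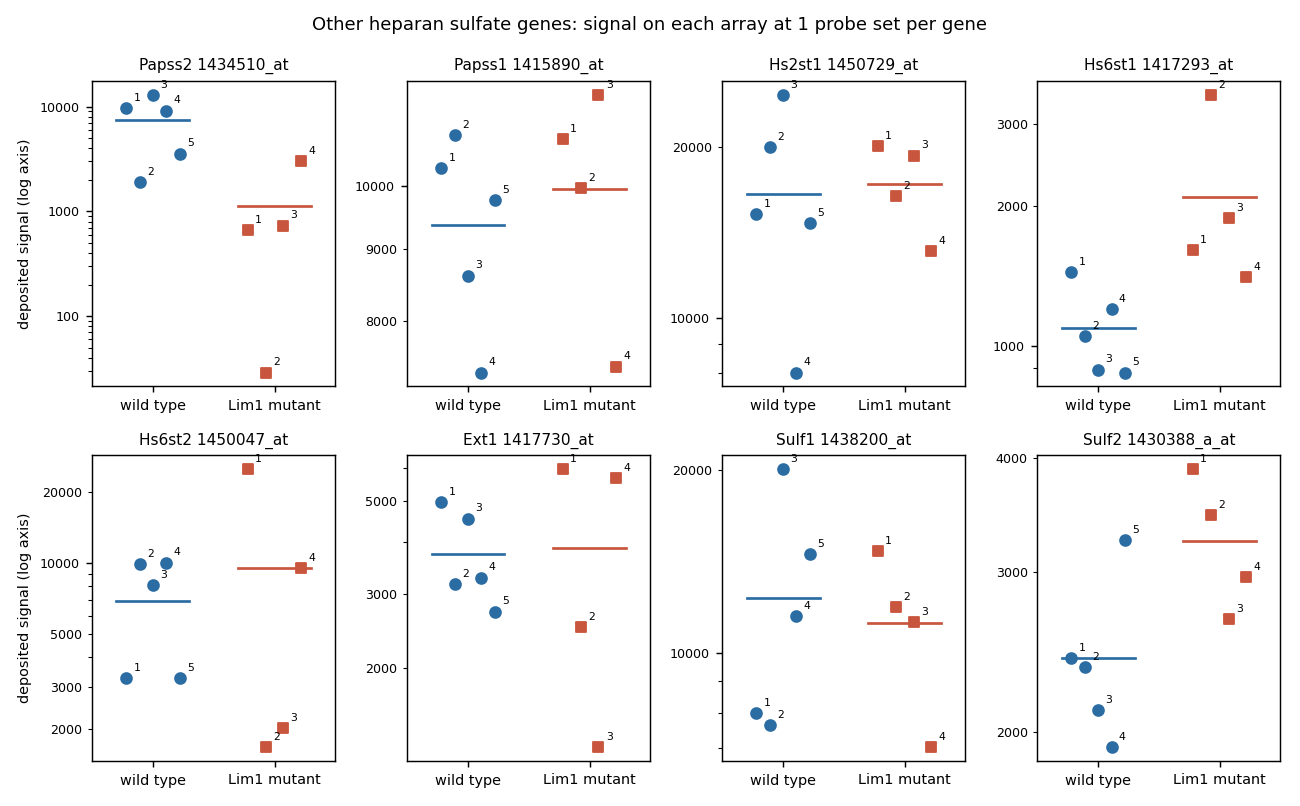
Deposited signal (log axis, scaled separately for each gene) on each array at 1 probe set for each of 8 genes, with circles for wild type, squares for Lim1 mutant, array numbers beside the points and lines at the group means. The groups overlap in all 8 panels, for Papss2 through wild-type array 2 (1892) and mutant array 4 (3034).

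Sulf1 and Sulf2 strip 6-O sulfate from finished chains and so change which signals the chain can hold. Sulf1 read 7991, 7634, 20046, 11514 and 14569 in wild type and 14723, 11915, 11245 and 7024 in the mutants at 1438200_at, with a difference of -0.07 ± 0.32. At 1436319_at it read 3050 to 10780 and 1595 to 7895 (-0.53 ± 0.49). Both probe sets were highest on wild-type array 3 and lowest on mutant array 4. Wild-type array 3 was also the highest array for Papss2 (1434510_at) and for the summed stroma, endothelial, cap mesenchyme, macrophage and erythroid markers. It had the lowest vesicle sum (101719) and the highest Gapdh ratio of 3 prime to 5 prime signal (87.6). Its beta-actin ratio, 18.0, lay within the 14.7 to 21.7 of wild type, and that ratio was highest on mutant array 2, at 25.2. The part of those cells, or of RNA quality, in the Sulf1 and Papss2 signals was not tested. The remaining Sulf1 probe set (1446416_at) was below the filter, at 5.70 to 688.

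Sulf2 had differences above 0 at each of its 3 probe sets. At 1430388_a_at it read 2416, 2361, 2118, 1928 and 3257 in wild type and 3892, 3468, 2666 and 2961 in the mutants, a difference of 0.45 ± 0.29. Wild-type array 5 alone lay among the mutants. At 1442408_at the signals were 448 to 1505 and 695 to 2680 (1.17 ± 0.53), and at 1447602_x_at they were 24410 to 41153 and 24492 to 42038 (0.20 ± 0.19). The suffix of the last marks probes that can also match other transcripts, so its signal is uncertain as a measure of Sulf2.

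Of the 26 member probe sets, 20 passed the filter on dim signals and 6 did not. Among the 20, 11 differences were above 0 and 9 below, with a median of 0.12, against 0.03 over all 27022 probe sets tested, 52.7% of which lay above 0. The groups did not overlap at 1 member probe set, Hs3st3b1 1433977_at, lower in the mutants. Of all tested probe sets 2.25% had no overlap, 0.884% lower and 1.37% higher in the mutants. Without mutant array 4 that count was 4, with Papss2 (1434510_at) lower and Hs6st1 and Hs2st1 (1422739_at) higher in the mutants, and the share of all tested probe sets without overlap was then 5.03%. The count was 2 without wild-type array 1 (Hs6st1 added), without wild-type array 2 (Papss2 added) and without wild-type array 5 (Sulf2 1430388_a_at added), where the shares over all tested probe sets were 3.93%, 4.09% and 3.73%. As a count over the members, 0 of the 20 probe sets were past an adjusted p of 0.05 in limma, where 0.0333% of all tested probe sets were (0.0148% higher and 0.0185% lower). Among the 17 probe sets of the members other than Hs3st3b1, 2 had an unadjusted p under 0.05, 1 higher and 1 lower, against 6.67% of all tested probe sets (3.8% higher and 2.87% lower). The members were chosen with this contrast known, and nothing is read from their counts.

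**Figure D4:**
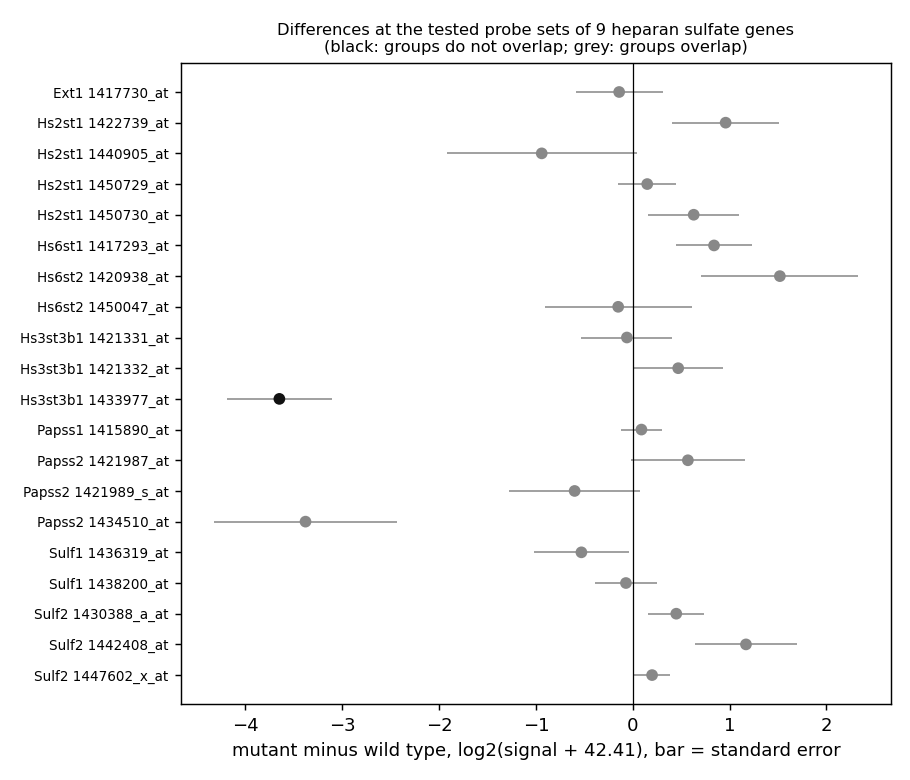
Mutant minus wild-type difference on the log2(signal + 42.41) scale with its standard error at each of the 20 tested probe sets of 9 genes, ordered by enzyme role, black where the groups do not overlap and grey where they do. Hs3st3b1 1433977_at at -3.65 and Papss2 1434510_at at -3.38 lie apart from the other 18, which are between -0.94 and 1.52.

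The other genes of the route were taken from a list made by function: 49 genes for the linker, the chain, the remaining sulfotransferases, precursor supply, breakdown and core proteins. Of these, 46 had a probe set of their own, and 78 of their 98 probe sets, from 40 genes, were tested. Differences were above 0 at 46 and below 0 at 32, with a median of 0.13. None passed an adjusted p of 0.05 in limma (0.0333% of all probe sets did), and 10, or 12.8%, had an unadjusted p under 0.05, 8 higher and 2 lower, against 6.67% of all tested probe sets (3.8% higher and 2.87% lower). The groups did not overlap at 5 of the 78, or 6.41%, against 2.25% of all tested probe sets. In the enzymes of chondroitin and dermatan sulfate, which draw on the same PAPS, 18 probe sets of 14 genes were tested, with a median of 0.19, and none passed in limma while 2, or 11.1%, had an unadjusted p under 0.05.

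Among the other enzymes that place the 3-O sulfate, Hs3st3a1 and Hs3st6 had differences in opposite directions. Hs3st3a1, the closest paralog of Hs3st3b1, read 19.7, 602, 1010, 398 and 586 in wild type and 267, 102, 55.2 and 21.4 in the mutants (1435622_at). Wild-type array 1 was the lowest of all 9 arrays, and the other wild-type arrays lay above every mutant. The means were 523 ± 359 (SD, n = 5) and 111 ± 109 (n = 4), and the difference was -1.68 ± 0.78 (limma adjusted p = 0.748), or -2.37 without wild-type array 1. On wild-type array 1 Hs3st3b1 (1433977_at) was among the highest, at 6853, so the paralogs did not follow each other there.

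Hs3st6 read 4980, 4668, 3769, 2007 and 5409 in wild type and 8672, 10995, 9326 and 6518 in the mutants (1459646_at). Every mutant array lay above every wild-type array. The means were 4166 ± 1349 (SD, n = 5) and 8878 ± 1852 (n = 4), a difference of 1.16 ± 0.33 or 2.23-fold that did not pass over all probe sets (limma adjusted p = 0.614). Hs3st1 (0.21 ± 0.51, limma adjusted p = 0.963) and Hs3st2 (0.07 ± 0.45 and -0.24 ± 0.44, limma adjusted p = 0.988 and 0.95) overlapped between the groups. Hs3st4 was below the filter, with means of 94.7 in wild type and 102 in the mutants.

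**Figure D5:**
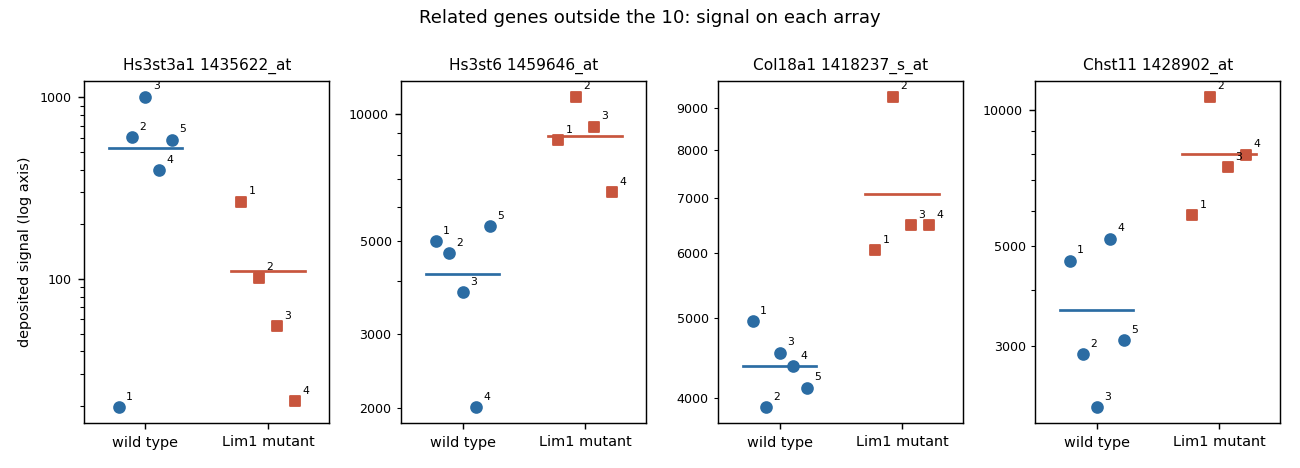
Deposited signal (log axis, scaled separately for each gene) of Hs3st3a1, Hs3st6, Col18a1 and Chst11 on each array, with circles for wild type, squares for Lim1 mutant, array numbers beside the points and lines at the group means. At the probe sets drawn for Hs3st6, Col18a1 and Chst11 every mutant array lies above every wild-type array. For Hs3st3a1 the groups overlap through wild-type array 1 at 19.7.

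The core proteins that carry the chains had 26 tested probe sets. The groups did not overlap at 2 of these, or 7.69%, against 2.25% of all tested probe sets. Differences ran from -1.99 to 1.63, with 13 above 0, 13 below and a median of -0.02. The 2 without overlap were of Col18a1 and Sdc1, both higher in the mutants. Col18a1 is the basement membrane collagen that carries heparan sulfate. At 1418237_s_at it read 3900 to 4957 in wild type and 6045 to 9282 in the mutants (0.68 ± 0.24, limma adjusted p = 0.696). Its other, brighter probe set (1426955_at) overlapped, at 6220 to 10606 and 8735 to 27991 (1.01 ± 0.31, limma adjusted p = 0.647). Sdc1, the epithelial syndecan, read 799 to 2190 and 2481 to 11028 at 1415944_at (1.44 ± 0.47, limma adjusted p = 0.668). Its brighter probe sets 1415943_at and 1437279_x_at read 7285 to 9603 and 6695 to 12728, and 13032 to 23226 and 15045 to 42193, with overlap at both.

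In precursor supply, Slc35b2, which carries PAPS into the Golgi, read 1705 to 2650 in wild type and 2637 to 3292 in the mutants (1423927_at, 0.43 ± 0.29, limma adjusted p = 0.832). Its groups did not overlap after normalisation but did in the deposited signals. The other Slc35b2 probe set (1429007_at) overlapped, at 351 to 1919 and 785 to 2024 (0.44 ± 0.53, limma adjusted p = 0.917). Over the 17 tested supply probe sets the differences ran from -0.99 to 2.1. Glce, the epimerase that converts glucuronic acid, was the 1 pathway gene with a tested probe set that was lower without overlap after normalisation, at 122 to 168 and 55.2 to 147 (1425876_a_at, -0.51 ± 0.34, limma adjusted p = 0.833). These deposited signals overlapped too, and the brighter Glce probe set (1428374_at) read 1261 to 7953 and 3290 to 11118. In the linker, chain and breakdown groups the largest differences were at single probe sets. These were B3galt6 1440340_at (1.69 ± 0.82), Extl2 1422538_at (1.08 ± 0.37) and Ids 1455481_at (1.59 ± 1.0). Their limma adjusted p were 0.767, 0.696 and 0.819, with overlap at each. B3galt6 gave 0.27 ± 0.68 at 1421155_at and 1.4 ± 1.22 at 1435252_at, and Extl2 gave 0.76 ± 0.57 at 1422539_at. For Ids, 1421216_a_at gave 0.26 ± 0.44 and 1450166_at gave -0.05 ± 0.38. Below the filter, Ids gave -0.7 at 1427812_at, -0.44 at 1427813_at and 0.62 at 1434751_at. Without wild-type array 3, which read 10.8, the difference at Ids 1455481_at was 0.88. Without wild-type arrays 1 and 3 it was 0.77 there and 0.67 at B3galt6 1440340_at. Chst11, which sulfates chondroitin, read 2199 to 5202 in wild type and 5861 to 10730 in the mutants (1428902_at, 1.19 ± 0.32, limma adjusted p = 0.562). It was the 1 chondroitin probe set without overlap, or 5.56% of the 18, against 2.25% of all tested probe sets. The other Chst11 probe set (1450509_at) overlapped, at 77.9 to 521 and 176 to 717 (0.46 ± 0.56, limma adjusted p = 0.919).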

How the data were processed

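Signals of 45101 probe sets on 9 arrays were used as the authors deposited them, as linear intensity values from GCOS, per the submitters' processing notes. Its algorithm was not given in the sources used here. The deposited intensities had a mean of 1500 on each array after trimming 2% at each end, so the arrays had been scaled to a common level. Gene names came from the platform annotation, in which 34958 probe sets had 1 gene symbol, 932 several and 9211 none. Listed genes without a probe set of their own, Ndst1 among them, were not analysed here.

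Intensities were transformed as log2(value + 42.41), the 25th percentile of all values, and quantile normalised because the array medians spanned 0.349 on the log2 scale. For dim probe sets such differences understate the change. The 64 control probe sets were left out, and probe sets at or above the 40th percentile of mean signal, 27022, were tested with limma 3.58.1 in R 4.3.3 (lmFit and eBayes with a trend, two-sided, group as the only term, Benjamini-Hochberg over all tested). Differences below the filter came from a fit without it. The fit was tested on simulated data. The number of arrays limits precision, and each p value sets the group difference against the spread among these samples within groups. Overlap was judged on normalised values.

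The members, lists and design were chosen with earlier results of these data known. Named were all members, every 3-O-sulfotransferase, per role the probe sets without overlap or else the largest difference, and the 5 probe sets most like Hs3st3b1. Other probe sets of named genes, and Ret, Calb1, Emx2, Gata3, Wnt11 and Hoxb7 among the markers, were chosen after their values were seen. Upstream sequences came from RefSeq (GRCm38.p6), read as the first 250 bases of each entry. Alternatives covered normalisation, filter, pseudocount, variance model, array weights, left-out arrays and the replicate block.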

Additional observations from a re-analysis of the deposited data

Results flagged for a closer look

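Dixon's test for an array apart from its own group was applied to 40 groups of values (wild type and mutant at each of the 20 tested member probe sets). It marked 3 of them, and about 1 in 20, or 2 of 40, would be marked by chance. Hs2st1 at 1422739_at read 199 on wild-type array 3, against 635 to 801 on the other wild-type arrays. Hs2st1 at 1440905_at read 917 on mutant array 4, against 49.6 to 172 on the other mutants. Sulf2 at 1442408_at read 1505 on wild-type array 1, against 448 to 745 on the other wild-type arrays.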

How the results depend on the processing

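The Hs3st3b1 difference at 1433977_at stayed between -4.03 and -3.25 with each array left out in turn and between -3.81 and -3.19 under the other alternatives, with no overlap in any of them. Of 19 other tested member probe sets, 11 kept the sign of their difference under all 18 alternatives and 8 did not. No pathway or chondroitin probe set passed under any of these alternatives, where the lowest adjusted p in limma among the 13 named was 0.342, of Chst11 in the chondroitin list. With each array left out, 3 to 8 probe sets in all passed, against 9 with all arrays, and the member probe sets without overlap numbered 1 to 4. Without wild-type arrays 1 and 3 together, 0 passed and 2 member probe sets had no overlap, as did 7.79% of all tested. With the replicate number as a block over wild-type arrays 1 to 4 and the mutants, 0 passed. The deviations of same-numbered arrays from their group means correlated at -0.038, -0.105, 0.0152 and 0.0537. The labels name no animals or litters, so whether same-numbered arrays share more than a number is unknown here. Dim probe sets carry no detection call here, so signals near the pseudocount have no firm order.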
